A study of Arabidopsis thaliana with 12 samples.

Results

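The plastid genome of Arabidopsis thaliana encodes, besides subunits of the photosynthetic complexes, an RNA polymerase, ribosomal proteins and a few other proteins, and the transcripts of these genes are described here. They were taken as every probe set assigned to exactly 1 gene of the plastid genome whose symbol does not start with psa, psb, pet, ndh, atp or rbc. This gave 26 genes, 1 probe set each, out of 22746 probe sets other than controls, beside 43 plastid photosynthesis genes. The 26 genes are 4 polymerase subunits, 8 proteins of the small and 7 of the large ribosomal subunit, and 7 others (matK, ycf3, accD, ycf4, cemA, clpP and ccsA). Other plastid genes are not analysed here.

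All plants were of the ecotype Col-0 and grew on MS agar at 21 °C under 24 h of light per day. The first group was the shoot apical meristem part (SAM), cut out under a microscope, of seedlings on 50 µM L-AOPP with 10 nM IAA, and the second was the SAM of plants on 50 µM L-AOPP alone. The third was the SAM of mock plants on 0.1% DMSO, the solvent, and the fourth was whole mock plants, undissected. L-AOPP is an inhibitor of phenylalanine ammonia-lyase that the study used against auxin synthesis, and IAA is the main natural auxin. Each group had 3 arrays, and nothing in the labels says that these came from separate cultures, so the p-values measure the spread between samples, which may be technical. The sample labels give an age of 4 days and the series text 7 days. The DMSO content of the L-AOPP plates is not given. A dissected apex is not a pure meristem, and the labels do not say how much young leaf it held.

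Plastids transcribe their genes with a bacterial-type polymerase whose core subunits rpoA, rpoB, rpoC1 and rpoC2 are plastid genes, and with phage-type polymerases encoded in the nucleus. The phage-type enzymes are known for transcribing the rpoB operon, which holds rpoB, rpoC1 and rpoC2, and the bacterial-type enzyme for most photosynthesis genes. Plastid ribosomes are of bacterial type, and their proteins come in part from the plastid and in part from the nuclear genome. In young shoot tissue this machinery is built up before photosynthesis genes are fully expressed. Plastid mRNAs have no stable poly(A) tail, and the labels do not name the primer used to make the labelled cRNA, so each signal also depends on a step that is not given.

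The signal of a probe set is a scaled fluorescence intensity, and the signals of different probe sets are not levels that can be set against each other. Within each group the mean signals of the 26 probe sets ran from 39.4 to 14962 in L-AOPP with IAA, from 37.5 to 14528 in L-AOPP, from 25.7 to 13553 in mock SAM and from 77.7 to 18571 in whole plants. The probe sets of rpoB and rps14 were the dimmest. The rps14 probe set, for a small subunit protein, did not pass the filter that left out the dimmest 30% of all probe sets. It read 38.4, 39.5 and 48.0 in L-AOPP with IAA, 30.6, 37.1 and 44.9 in L-AOPP, 31.4, 43.7 and 2.0 in mock SAM, and 79.5, 52.5 and 101 in whole plants. The other 25 genes were tested.

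The SAM label was checked against shoot meristem markers, which were higher in the dissected tissue. The 4 measured of 10 (PHV, LAS, UFO and CLV3) had a summed signal of 1462 to 1787 in L-AOPP with IAA, 1344 to 1389 in L-AOPP, 1534 to 2021 in mock SAM and 341 to 409 in whole plants. The stem cell marker CLV3 averaged 143 ± 42.4 in mock SAM and 24.6 ± 22.7 in whole plants (SD, n = 3 each). The 4 measured of 10 green leaf cell markers (RCA, LHCB4.1, SBPASE and PRK) summed to 32445 to 36490 in L-AOPP with IAA, 33818 to 35172 in L-AOPP, 35082 to 37350 in mock SAM and 84627 to 96495 in whole plants. None of the 8 markers was called, meaning an adjusted p below 0.05 in limma, in a comparison between SAM groups. Few probe sets were called there at all, such as 1.22% higher and 1.34% lower in L-AOPP against mock. In mock SAM against whole plants, 4 of 4 meristem markers were called higher and 4 of 4 green leaf markers lower. Of all probe sets, 42.6% were called higher and 25% lower in that comparison. Between L-AOPP and mock, all 4 meristem markers were lower on every L-AOPP array, as 12.3% of all probe sets were, with a median log2 difference of -0.67. At an unadjusted p below 0.05, 3 of these 4 were lower, as were 8.69% of all probe sets. UFO, which encodes an F-box protein of the meristem, averaged 83.4 ± 11.1 in L-AOPP and 145 ± 19.1 in mock SAM, a difference of -0.80 ± 0.22 (SE; limma adjusted p = 0.0688, and 0.0454 with a pseudocount). Their median was 0.50 on adding IAA to L-AOPP and -0.05 for L-AOPP with IAA against mock. The 2 measured of 7 root markers (EXPA7 and EXPA18) summed to 44.3 to 57.4 in mock SAM and 574 to 786 in whole plants.

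Single arrays stood apart for these genes. The mean log2 signal of the 25 tested genes was 12.05, 11.79 and 11.70 on the L-AOPP with IAA arrays, 11.44, 11.29 and 12.08 on the L-AOPP arrays, 11.46, 11.36 and 10.73 on the mock SAM arrays, and 12.45, 12.25 and 12.23 on the whole-plant arrays. L-AOPP replicate 3 was the highest of its group for all 26 genes and for 39 of the 43 photosynthesis genes. Mock SAM replicate 3 was the lowest of its group for 18 of 26 and 29 of 43. The 25S rRNA control read 164 on mock SAM replicate 3, against 5170 to 10331 elsewhere. It read 5798 and 6256 on mock SAM replicates 1 and 2, 6283 to 9195 in L-AOPP and 8485 to 10331 in L-AOPP with IAA. The mock SAM arrays thus lay below both treated groups without overlap, though narrowly for L-AOPP. The GAPDH control is read at its 3' and 5' ends, and their log2 ratio is higher in degraded or incompletely labelled RNA. This ratio was 1.24 to 1.36 in L-AOPP with IAA, 1.39 to 1.63 in L-AOPP, 1.39 to 2.1 in mock SAM and 0.94 to 1.01 in whole plants. The counts and medians between SAM groups are given below with and without these arrays.

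**Figure D1:**
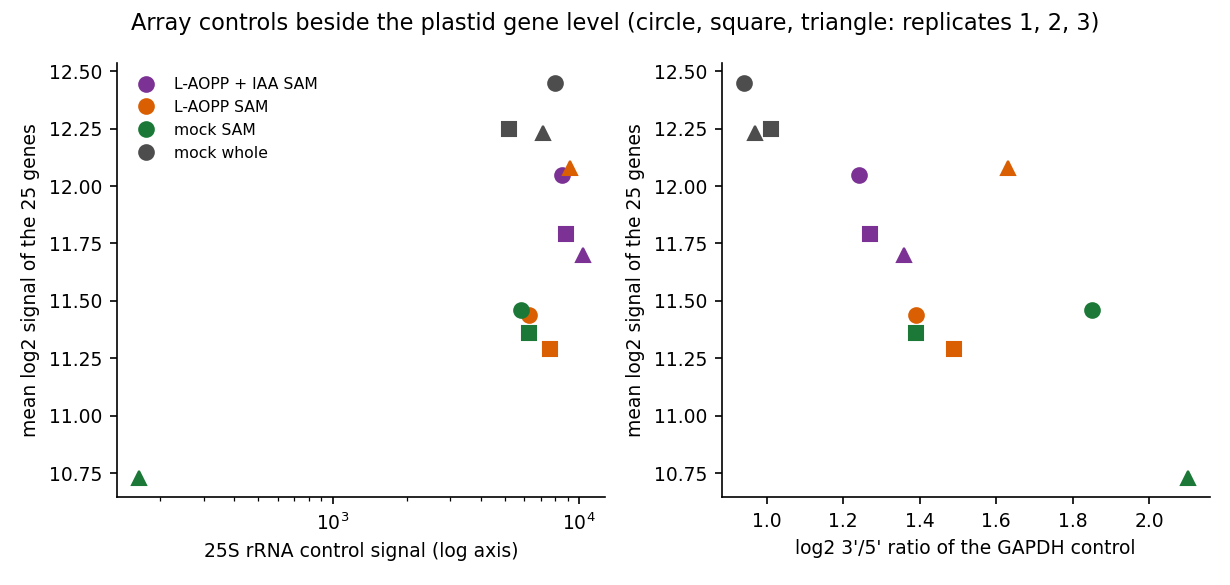
Mean log2 signal of the 25 tested genes on each of the 12 arrays (vertical axis) against the signal of the 25S rRNA control (left, log axis) and the log2 3'/5' ratio of the GAPDH control (right); colours are groups and symbols are replicate numbers. Mock SAM replicate 3 lies alone at the lowest plastid gene mean, 10.73, with the lowest 25S signal and the highest GAPDH ratio, and L-AOPP replicate 3 lies at 12.08, above the other SAM arrays.

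The comparison of mock SAM with whole mock plants asks how the apex differs from the plant it was cut from. All 25 tested genes fell in mock SAM, with 25 of 25 called at an adjusted p below 0.05 (limma, adjusted over 15922 probe sets). Of all probe sets tested, 25% were called lower. The dim rpoB, 1 of the 25, lay close to the filter, as given below. Without the filter, and so with rps14, 26 of 26 were called lower, beside 4844 of 22746 probe sets. The log2 differences ran from -2.96 to -0.45 with a median of -0.86, while all probe sets together had a median of 0.21 (0.16 with quantile normalization, 0.07 with median centring). The SAM and whole-plant arrays did not overlap for any of the 25, as was so in this direction for 26.2% of all probe sets. The 43 photosynthesis genes had a median of -1.48, with 41 called lower. In bulk RNA, fewer cells of a type and less RNA per cell cannot be told apart, and a drop in plastid signal cannot be told apart from fewer plastids or plastid genomes per cell. The summed green leaf markers given above were lower in SAM as well, and their part in the difference was not tested. The GAPDH ratio did not overlap between these groups. When it was added to the fit, 24 of 25 differences were below 0 and 7 were called lower. Over all 15922 probe sets, 2291 were then called lower, beside 3973 before. The median was then -0.81, beside -0.86 before, and single genes moved either way. Among those that shrank or turned were ycf3 at -1.99 (adjusted p = 0.0684), accD at -0.91 (0.279), cemA at -0.42 (0.734), rpl33 at -0.21 (0.732), rps16 at -0.03 (0.956) and rpoB at 1.34 (0.591), with adjusted p in parentheses. Others lost the call with a similar or larger fall, such as rpl16 at -0.74 (0.0939), ccsA at -0.61 (0.0963) and rpoC1 at -1.03 (0.0539).

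The largest fall was that of ycf3, which encodes an assembly factor of photosystem I. It read 1059, 1061 and 318 in mock SAM, against 4926, 7146 and 4746 in whole plants. All SAM arrays lay below all whole-plant arrays, and replicate 3 was the lowest of them. The difference was -2.96 ± 0.40 on the log2 scale (SE; limma adjusted p = 9.23e-06), a 7.76-fold lower signal, and -2.38 without mock SAM replicate 3. A second photosystem I assembly factor gene, ycf4, read 511, 463 and 192 in mock SAM and 1583, 1172 and 1184 in whole plants, and fell by 1.86 ± 0.41 (adjusted p = 0.000821). On the other SAM arrays ycf4 read 1014, 710 and 522 with L-AOPP and IAA, and 364, 281 and 1013 with L-AOPP. Both genes were among those that fell most, as were genes of other functions given below. The ycf4 difference ran from -2.12 to -1.42 with 1 array left out. It was -1.12 (limma adjusted p = 0.319) with the GAPDH ratio in the fit.

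The envelope protein gene cemA, whose product is linked to carbon uptake and light-induced proton movement, read 1610.3, 1885 and 475 in mock SAM and 5861, 4115 and 3687 in whole plants. It fell by 1.98 ± 0.47 (SE; limma adjusted p = 0.00151), and by 1.36 without mock SAM replicate 3, the array on which it was far below the others. Its signals were 3505, 1645 and 1652 with L-AOPP and IAA, and 1214, 764 and 2562 with L-AOPP. The accD gene encodes the plastid-made subunit of the acetyl-CoA carboxylase that starts fatty acid synthesis. Its signal was 334, 415 and 213 in mock SAM and 1119, 889 and 706 in whole plants, a fall of 1.52 ± 0.31 (adjusted p = 0.000449), beside 816, 556 and 492 with L-AOPP and IAA, and 339, 298 and 765 with L-AOPP. The small subunit gene rps2 read 2636, 2574 and 1565 in mock SAM and 7742, 5685 and 6618 in whole plants, and fell by 1.59 ± 0.25 (adjusted p = 3.38e-05), beside 4966, 4228 and 2956 with L-AOPP and IAA, and 3125, 2488 and 5114 with L-AOPP. In all of these genes the high L-AOPP array was replicate 3. For each of accD, ycf4, cemA, rps2 and ycf3 the fall was called whichever array of these groups was left out.

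The rpoB gene, for the beta subunit of the polymerase, had a difference of -2.79 ± 1.04 (SE; limma adjusted p = 0.0262), but from a dim probe set. It read 55.6, 32.9 and 0.9 in mock SAM and 65.4, 110 and 76.4 in whole plants. The treated SAM arrays read 47.6, 36.7 and 33.9 with L-AOPP and IAA, and 44.3, 28.1 and 67.8 with L-AOPP. The value of 0.9 lies under the floor of 19.4, the 20th percentile of all signals. With signals raised to that floor the difference was -1.32 (adjusted p = 0.00844), and without mock SAM replicate 3 it was -0.94 (adjusted p = 0.0638). The direction held in both, but the size rests on 1 array. With 1 array of these groups left out in turn, rpoB was called in 3 of 6 fits. The filter used the mean log2 signal over all arrays, whole plants included, where rpoB was highest. That mean was 5.16 for rpoB and also for rps14, which was left out. The rpoB call is therefore not separate from the filter. Of the other polymerase genes, rpoC2 fell by 1.19 ± 0.21, rpoC1 by 0.93 ± 0.19 and rpoA by 0.65 ± 0.15. Without mock SAM replicate 3 these differences were -1.08, -0.93 and -0.83, so the order of the polymerase genes was not settled.

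The smallest differences were those of rps3 (-0.45 ± 0.10), rpl32 (-0.51 ± 0.09), rps4 (-0.51 ± 0.13), ccsA (-0.53 ± 0.13), rpl14 (-0.53 ± 0.12) and matK (-0.54 ± 0.10), with SE in parentheses. The ccsA protein attaches heme to c-type cytochromes, and matK encodes a maturase for introns of plastid transcripts. These genes were still called, and their SAM and whole-plant arrays did not overlap. By role, the median difference was -1.06 for the 4 polymerase genes, -0.60 for the 7 tested small subunit genes, -0.76 for the 7 large subunit genes and -1.52 for the 7 others. The roles therefore overlapped widely, and the spread within each was larger than the gaps between them. The large subunit genes ran from -1.5 (rpl20) to -0.51 (rpl32), with rpl36 at -1.37, rpl33 at -0.81, and rpl16 and rpl22 at -0.76. Among the small subunit genes, rps15 (-1.51) stood beside rps2, followed by rps18 (-0.90), rps16 (-0.60) and rps19 (-0.57). The fall of clpP, a subunit of the plastid Clp protease, was 0.86 ± 0.15.

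**Figure D2:**
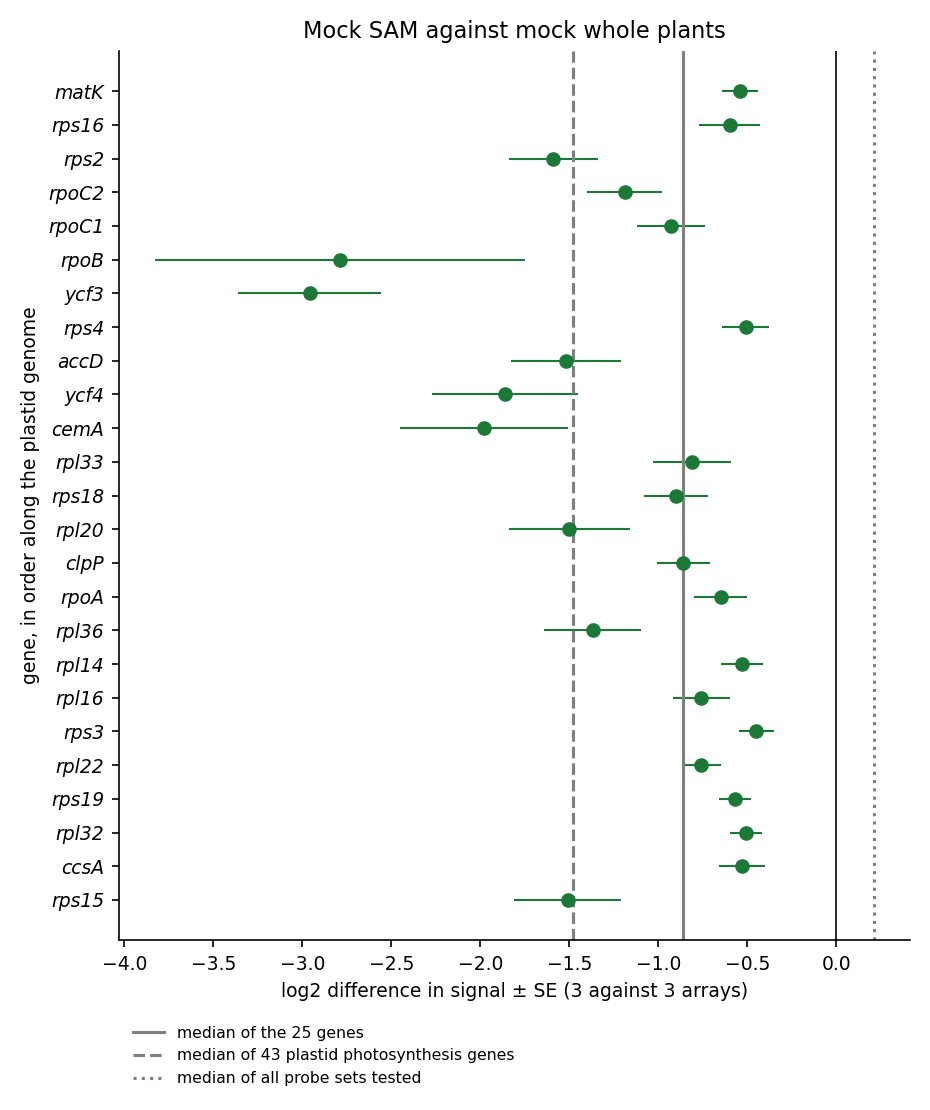
Log2 difference in signal between mock SAM and mock whole plants for the 25 tested genes, in their order along the plastid genome (points, with bars for the SE; 3 against 3 arrays). All points lie left of 0, from -2.96 for ycf3 to -0.45 for rps3, and vertical lines mark the medians of these genes (-0.86), of 43 plastid photosynthesis genes (-1.48) and of all probe sets tested (0.21).

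Neighbours on the genome could differ little or much. The adjoining ribosomal genes rpl14, rpl16, rps3, rpl22 and rps19 ran from -0.76 to -0.45. The adjoining rps2, rpoC2 and rpoC1 ran from -1.59 to -0.93, but the dim rpoB next to them was at -2.79. The neighbours ycf3 and rps4 stood at -2.96 and -0.51. Brightness went with the size of the difference. The 12 tested genes with the lower mean signals over all arrays (49.9 to 4142) had a median of -1.52, and the 13 with the higher ones (6963 to 15404) a median of -0.57. The part of brightness in the sizes was not tested.

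Set against the photosynthesis genes of the same genome on the same array, the 25 genes stood relatively higher in the apex. The mean log2 signal of the 25 minus that of the 43 was 1.24 ± 0.02 in L-AOPP with IAA, 1.34 ± 0.08 in L-AOPP, 1.21 ± 0.04 in mock SAM and 0.84 ± 0.03 in whole plants (SD, n = 3 each). It ran from 1.18 to 1.25 on the mock SAM arrays and from 0.81 to 0.87 on the whole-plant arrays. Mock SAM replicate 3, at 1.19, did not stand apart in this measure, and neither did L-AOPP replicate 3, at 1.26, the lowest of its group. This is a description, and no test was made of it. The 25 genes also had brighter probe sets, with a mean log2 signal of 12.31 in whole plants against 11.47 for the 43. Between mock SAM and whole plants the dimmer 12 of the 25 had a median of -1.52, near the -1.48 of the 43. Only the brighter 13, at -0.57, had a smaller median fall. The part of brightness in this measure was not tested.

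The comparison of L-AOPP with mock in the SAM asks what the inhibitor does to these transcripts. Only rpoC2 was called: 1 of 25 genes rose and 0 fell, where 1.22% of all probe sets were called higher and 1.34% lower. The difference was above 0 for 23 of the 25, against 49.0% of all probe sets, and the median was 0.28, against -0.01 over all. At an unadjusted p below 0.05, 8 genes were higher and 0 lower, with 8.11% of all probe sets higher and 8.69% lower at that threshold. The 43 photosynthesis genes had 0 calls and a median of 0.19. This shift rested on 2 arrays. Without L-AOPP replicate 3 the median was 0.04, without mock SAM replicate 3 it was 0.15, and without both it was -0.01, with 11 of 25 genes above 0. The meristem markers lay below mock in this comparison, as given above, and their part in it was not tested. The 25S signal was higher on every L-AOPP array than on every mock array. With the log2 of that signal added to the fit, the median was 0.12, with 19 of 25 genes above 0 and 0 called. Of 15922 probe sets, 50 were then called higher and 66 lower. Mock SAM replicate 3, at 164, lay far from all other arrays in this signal. The fit therefore comes close to leaving that array out, and cannot test the smaller 25S differences between the other arrays. Their part was not tested.

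The rpoC2 gene, for the beta'' subunit of the plastid polymerase, read 1712, 1659 and 3246 in L-AOPP, against 1114, 1277 and 964 in mock SAM. Every L-AOPP array was above every mock array, and L-AOPP replicate 3 was well above the other L-AOPP arrays. The difference was 0.92 ± 0.21 (SE; limma adjusted p = 0.0342), a 1.89-fold higher signal. Without L-AOPP replicate 3 it was 0.60 (adjusted p = 0.0935) and without mock SAM replicate 3 0.81 (adjusted p = 0.127). With any 1 array of the 2 groups left out, it ran from 0.60 to 1.09, and it was called only without L-AOPP replicate 2 or mock SAM replicate 2.

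Its neighbour rpoC1, for the beta' subunit, read 2939, 2293 and 4115 in L-AOPP, against 1906, 1778 and 1839 in mock SAM, again with no overlap. The difference of 0.72 ± 0.19 missed the threshold (SE; limma adjusted p = 0.0541). The mock arrays lay close together for this gene, mock SAM replicate 3 included. The only other gene without overlap between the groups was ycf3, with 1149.5, 2138 and 2469 in L-AOPP, against 1059, 1061 and 318 in mock SAM, and a difference of 1.36 ± 0.40 (adjusted p = 0.0895) that was 0.78 without mock SAM replicate 3. Groups in which every L-AOPP array was higher made up 10.6% of all probe sets. The dim rpoB probe set, at 44.3, 28.1 and 67.8 in L-AOPP and 55.6, 32.9 and 0.9 in mock SAM, overlapped, and its difference of 1.89 ± 1.04 (adjusted p = 0.381) was 0.04 without mock SAM replicate 3. The fourth polymerase gene, rpoA, differed by 0.06 ± 0.15 (adjusted p = 0.873).

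The other genes had smaller differences than rpoC2 and ycf3 in this comparison. For the small subunit they ran from -0.03 (rps4) to 0.77 (rps15), and for the large subunit from 0.00 (rpl32) to 0.59 (rpl36). The adjoining genes rpl14, rpl16, rps3, rpl22 and rps19 lay between 0.02 and 0.28, with SE of 0.09 to 0.16. Of the others, accD differed by 0.46 ± 0.31, ycf4 by 0.40 ± 0.41, clpP by 0.27 ± 0.15, cemA by 0.24 ± 0.47, matK by 0.17 ± 0.10 and ccsA by -0.08 ± 0.13. None of these passed the test.

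Adding IAA to L-AOPP asks whether auxin reverses what the inhibitor does. Against L-AOPP alone, 0 of 25 genes were called (limma), where 0.86% of all probe sets were called in either direction. At an unadjusted p below 0.05, rps18, rpl16 and rpl32 were higher and none was lower, with 5.43% of all probe sets higher and 5.31% lower at that threshold. The median was 0.20, against 0.00 over all probe sets, and 22 of 25 differences were above 0, as were 50.8% over all. Against mock SAM the median was 0.73 with L-AOPP and IAA and 0.28 with L-AOPP alone, values that share the 3 mock arrays. For rpoC2 the IAA difference was 0.08 ± 0.21 and for rpoC1 0.13 ± 0.19, so the values with and without IAA were within their error.

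The gene with the clearest separation between the L-AOPP groups was rps18, for a small subunit protein. It read 2559, 2229.9 and 2118 in L-AOPP with IAA, against 1405, 1367 and 2066 in L-AOPP. The groups did not overlap, but L-AOPP replicate 3 lay just below the lowest array with IAA. Every array with IAA was higher for 9.36% of all probe sets. The difference was 0.54 ± 0.18 (SE; limma adjusted p = 0.237). When L-AOPP replicate 3 and mock SAM replicate 3 were both left out, a choice made after seeing the data, 6 genes were called higher with IAA than with L-AOPP alone, where 0.314% of all probe sets were. They were rps18 (0.73), rps15 (0.91), rpl16 (0.63), rpl20 (0.94), rpl36 (0.66) and ycf4 (1.18), with adjusted p between 0.0173 and 0.0418. With L-AOPP replicate 3 alone left out, 0 were called, with the same differences, where 14 of 15922 probe sets were called higher and 43 lower.

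**Figure D3:**
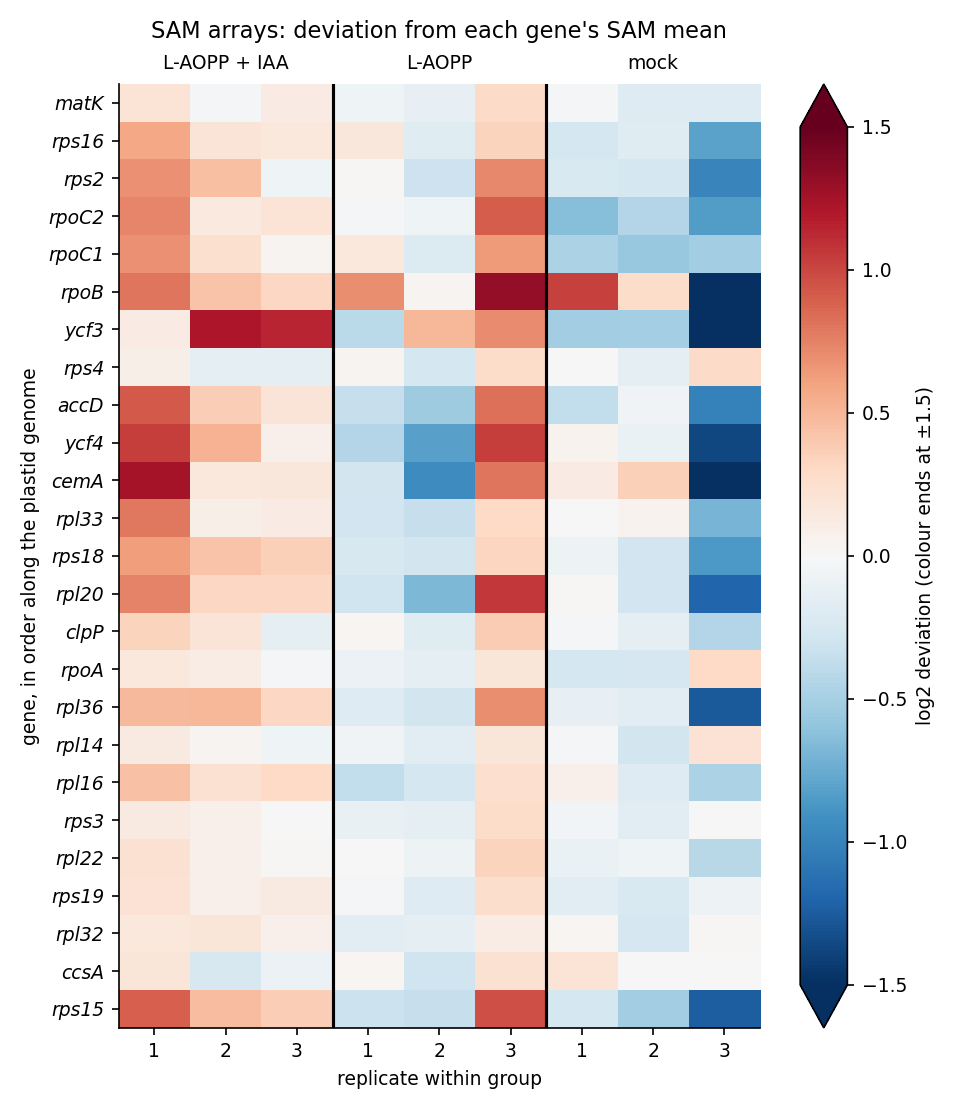
Log2 deviation of each tested gene on each of the 9 SAM arrays from the gene's mean over them (colour, ending at 1.5 in each direction), with genes in their order along the plastid genome and arrays grouped by treatment. L-AOPP replicate 3 is red for all 25 genes, mock SAM replicate 3 is blue for most of them and red for rps4, rpoA and rpl14, and replicate 1 of L-AOPP with IAA is the reddest of its group for most genes.

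Against mock SAM, plants with L-AOPP and IAA together showed the most calls. Of the 25 genes, 6 rose and 0 fell, where 1.22% of all probe sets were called higher and 1.82% lower. The 6 were the polymerase genes rpoC2 and rpoC1, the small subunit genes rps15, rps16 and rps18, and ycf3. At an unadjusted p below 0.05, 18 were higher and 0 lower, with 8.79% of all probe sets higher and 9.21% lower. For 17 genes every array with L-AOPP and IAA was above every mock array, which held for 9.81% of all probe sets. The median was 0.73, against -0.00 over all probe sets, and 23 of 25 differences were above 0, as were 49.8% over all. The 43 photosynthesis genes had 2 calls, both higher, and a median of 0.64. This comparison shares its mock arrays with that of L-AOPP against mock, so both contain the low mock SAM replicate 3.

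The polymerase genes rpoC2 and rpoC1 had differences from mock close to those with L-AOPP alone. The rpoC2 signal was 2866, 1917 and 1993 in L-AOPP with IAA, against 1114, 1277 and 964 in mock SAM, a difference of 1.00 ± 0.21 (SE; limma adjusted p = 0.022). The rpoC1 signal was 4260.4, 3114 and 2711 in L-AOPP with IAA, against 1906, 1778 and 1839 in mock SAM, a difference of 0.84 ± 0.19 (adjusted p = 0.0271). In whole plants rpoC2 read 2806, 2269.9 and 2538 and rpoC1 3735, 2892 and 3985. For both genes replicate 1 was the highest array with IAA, and no array overlapped with mock. Their size did not rest on mock SAM replicate 3, without which the differences were 0.90 and 0.84, but the adjusted p was then 0.0945 and 0.0846. By contrast rpoA, the polymerase gene that lies apart from the others on the genome, differed by 0.16 ± 0.15 (adjusted p = 0.61).

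**Figure D4:**
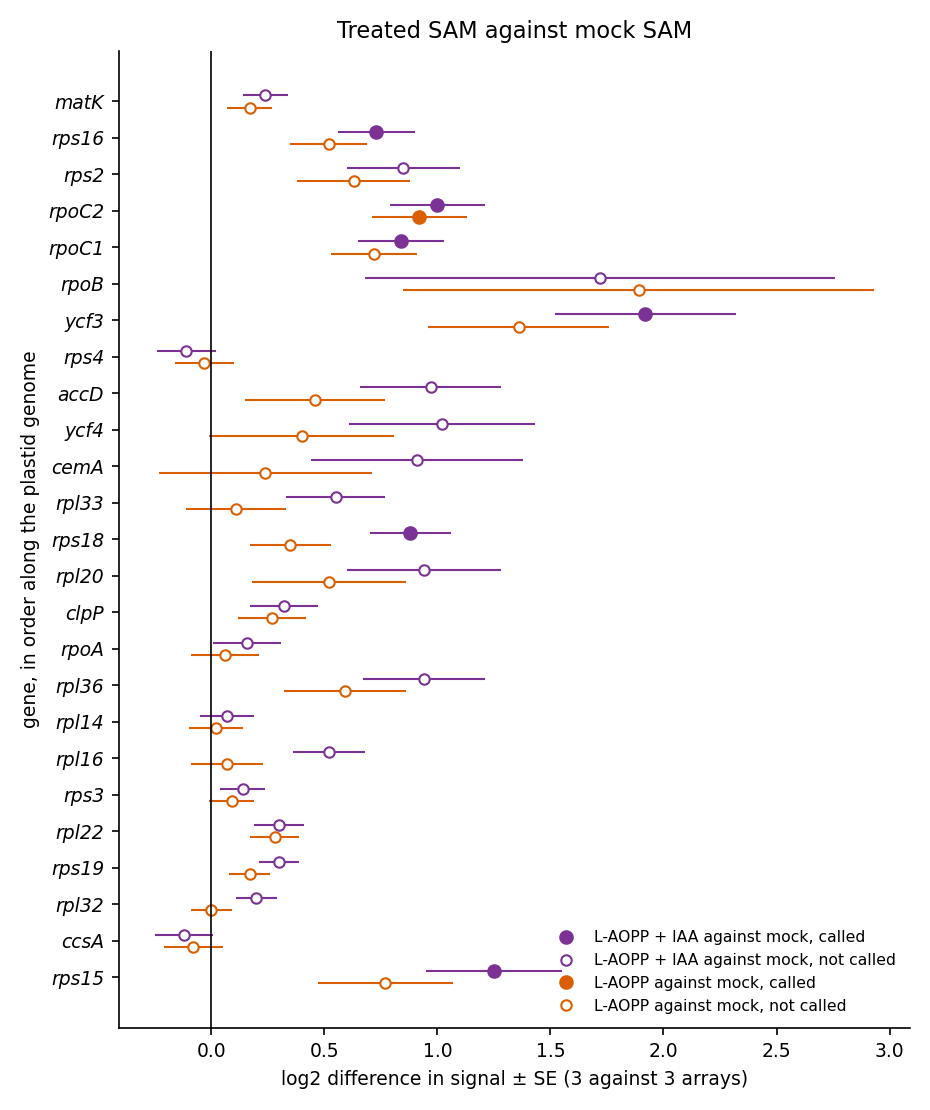
Log2 difference in signal from mock SAM for L-AOPP with IAA (purple) and L-AOPP (orange), with bars for the SE (3 against 3 arrays) and genes in their order along the plastid genome; filled points were called at an adjusted p below 0.05. The adjoining genes rps2, rpoC2 and rpoC1 lie between 0.63 and 1.00 in both comparisons, and the next gene, the dim rpoB, lies at 1.72 with IAA and 1.89 without. The genes rps4 and ccsA lie just below 0, and both comparisons use the same 3 mock arrays.

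Among the small subunit genes, rps15 read 1521, 1120.4 and 1049 in L-AOPP with IAA, against 680, 570 and 345 in mock SAM. It rose by 1.25 ± 0.30 (SE; limma adjusted p = 0.0397), a 2.37-fold higher signal. Its L-AOPP arrays read 654, 639 and 1589, and its whole-plant arrays 1767, 1156 and 1521. The rps18 signal, given above for the L-AOPP groups, was 1569, 1354 and 907 in mock SAM and 2536, 1984 and 2485 in whole plants. The rise with L-AOPP and IAA was 0.88 ± 0.18 (adjusted p = 0.0197). The rps16 signal was 998, 767 and 749 in L-AOPP with IAA, against 556, 590 and 385 in mock SAM, a rise of 0.73 ± 0.17 (adjusted p = 0.0343), beside 752, 588 and 843 in L-AOPP and 850, 665 and 781 in whole plants. In each of these genes the lowest mock array was replicate 3, and in none did the groups overlap. Without that array the differences were 0.96, 0.66 and 0.54 for rps15, rps18 and rps16.

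The largest rise was that of ycf3, with 1651, 3519 and 3345 in L-AOPP with IAA, against 1059, 1061 and 318 in mock SAM. The difference was 1.92 ± 0.40 (SE; limma adjusted p = 0.0213), a 3.79-fold higher signal, and 1.34 (adjusted p = 0.0658) without mock SAM replicate 3. Here replicate 1 was the lowest array with IAA, whereas it was the highest for 22 of the 26 genes. The whole-plant arrays, at 4746 to 7146, were above all SAM arrays for this gene. For rpoC2, rpoC1, rps15, rps16 and rps18 the arrays with L-AOPP and IAA overlapped with those of whole plants.

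**Figure D5:**
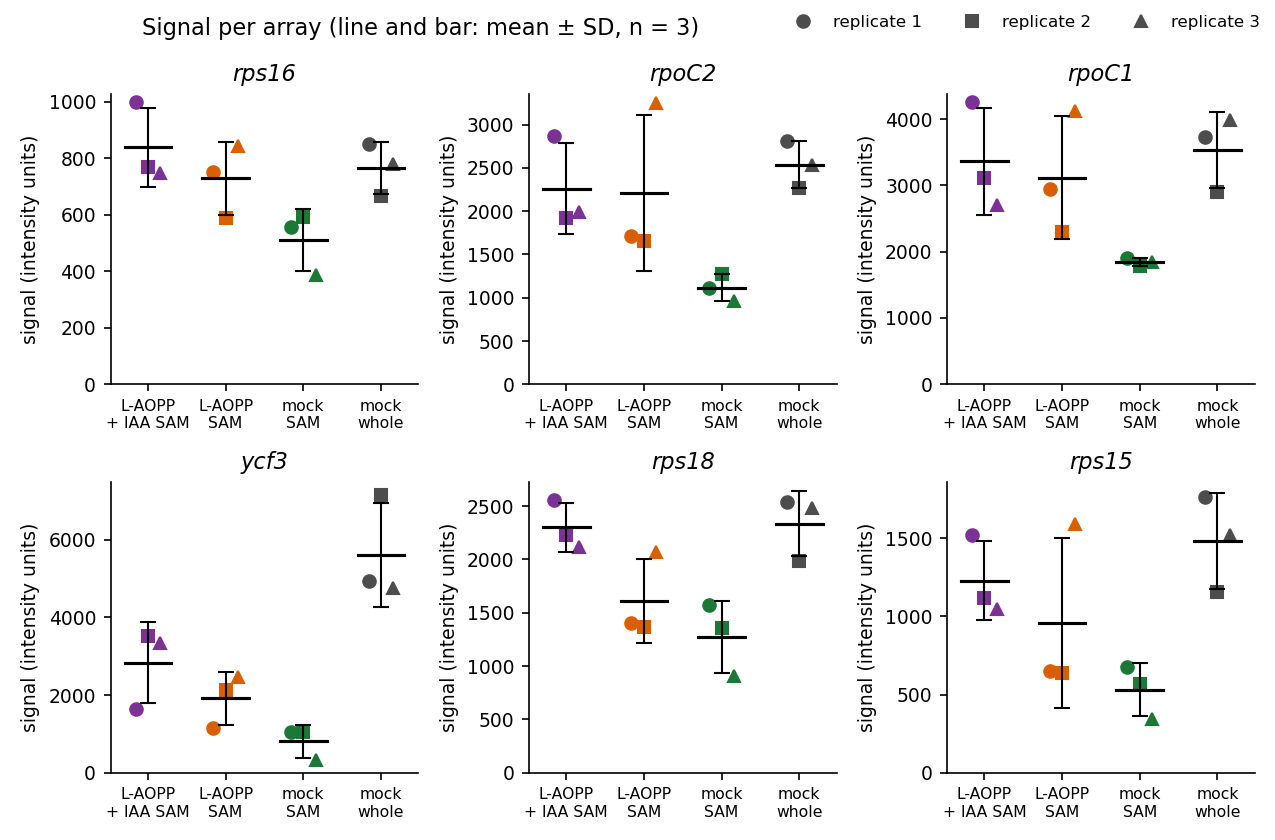
Signal per array, in intensity units on linear axes from 0, of the 6 genes called in a comparison between SAM groups; symbols are replicates, and lines and bars are the mean and SD (n = 3). In every panel the arrays with L-AOPP and IAA lie above the mock SAM arrays, and L-AOPP replicate 3 (triangle) is the highest L-AOPP array.

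The calls of L-AOPP with IAA against mock depended on single arrays. Without mock SAM replicate 3, 0 of 25 genes were called and the median was 0.35, and without replicate 1 or 2 of mock SAM 3 and 4 were called. Without replicate 1, 2 or 3 of L-AOPP with IAA 1, 2 and 4 were called. Calls over all 15922 probe sets moved as well. With all arrays 194 were called higher, and 62, 111 and 245 without mock SAM replicate 3, 1 or 2. Without replicate 1, 2 or 3 of L-AOPP with IAA they were 125, 77 and 118. The difference stayed above 0 in 23 of 25 genes without mock SAM replicate 3. When L-AOPP replicate 3, which lends its spread to the fit, was left out as well, 6 genes were called higher, where 0.377% of all probe sets were. They were rpoC2, rpoC1, rps15 and rps18, and in place of rps16 and ycf3 now rps19 (0.34) and rpl36 (0.57). With the 25S rRNA signal or the GAPDH ratio as a covariate 0 were called, and the medians were 0.34 and 0.45. Of all probe sets, only 28 and 4 were called higher in these 2 fits, so they leave few calls for any gene. The GAPDH ratio did not overlap here either, with 1.24 to 1.36 in L-AOPP with IAA and 1.39 to 2.1 in mock SAM, so RNA quality moved with the group in which the 6 genes rose, and its part was not tested beyond this fit. The 25S signal was also higher on every array with L-AOPP and IAA than on every mock array. The fit with it is set mainly by mock SAM replicate 3, and its median is near that without this array. The part of the other 25S differences was not tested.

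Genes that missed the threshold in this comparison included several with differences near 1. They were ycf4 (1.02 ± 0.41), accD (0.97 ± 0.31), rpl36 (0.94 ± 0.27), rpl20 (0.94 ± 0.34), cemA (0.91 ± 0.47) and rps2 (0.85 ± 0.25), with SE and with adjusted p from 0.0687 to 0.329 (limma). Without mock SAM replicate 3 they were 0.57 for ycf4, 0.71 for accD, 0.57 for rpl36, 0.59 for rpl20, 0.28 for cemA and 0.60 for rps2. The dim rpoB differed by 1.72 ± 1.04, and by -0.13 without mock SAM replicate 3. Differences between 0.07 and 0.55 were measured for rpl14, rps3, rpl32, matK, rpl22, rps19, clpP, rpl16 and rpl33. Only rps4 (-0.11 ± 0.13) and ccsA (-0.12 ± 0.13) lay below 0. By brightness, the 12 genes with lower signals had a median of 0.96 and held the 6 calls, and the 13 with higher signals had a median of 0.24. The same split gave 0.58 and 0.09 for L-AOPP against mock, and 0.45 and 0.07 for adding IAA to L-AOPP.

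The nuclear genes that work with these plastid genes could be followed in part, from lists chosen by function. Of 33 nuclear genes for plastid ribosomal proteins 9 were tested, and all 9 were called lower in mock SAM than in whole plants, with a median of -1.10. Of all probe sets, 25% were called lower in this comparison, and the median over all was 0.21. PRPS6, of the small subunit, averaged 3967 ± 70.6 in mock SAM and 10940 ± 618 in whole plants, and fell by 1.46 ± 0.07 (limma adjusted p = 7.29e-11). PRPL19B and PRPL5, of the large subunit, fell by 1.39 ± 0.09 and 1.28 ± 0.08. In L-AOPP against mock 1 of the 9 was called higher and 0 lower, where 1.22% of all probe sets were called higher. It was PRPL19A, by 0.33 ± 0.08 (adjusted p = 0.0457). In L-AOPP with IAA against mock 2 were called higher, where again 1.22% of all probe sets were. They were PRPL19B by 0.42 ± 0.09 (adjusted p = 0.0259) and PRPL19A by 0.33 ± 0.08 (adjusted p = 0.0419). Against L-AOPP alone 0 of 9 were called, where 0.86% of all probe sets were. The medians of the 9 were 0.19, 0.19 and 0.00 in these comparisons. The PRPL19A difference was 0.30 in both comparisons with mock without mock SAM replicate 3, and it was called in neither without that array, without mock SAM replicate 1 or without any single treated array. PRPL19B missed the threshold without mock SAM replicate 1 or 3, or replicate 1 or 2 of L-AOPP with IAA, with differences of 0.37 to 0.42.

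Of 9 plastid translation factors 2 were tested, and both fell in mock SAM against whole plants, where 25% of all probe sets were called lower. FUG1, the initiation factor 2 of plastids, fell by 0.91 ± 0.11 and the initiation factor gene IF3 by 0.54 ± 0.09. Of 29 nuclear partners of the proteins of clpP, accD, ccsA and the ycf genes 7 were tested, and all 7 fell, with a median of -0.76. Examples were CCS1 (-1.40 ± 0.14), which acts with the ccsA protein in cytochrome assembly, CLPP4 (-0.90 ± 0.07), a subunit of the same protease as the clpP product, and PYG7 (-0.84 ± 0.09), an assembly factor of photosystem I. Neither list had a call between SAM groups. Of 9 sigma factors and phage-type polymerases only RPOTMP was tested, a phage-type polymerase of mitochondria and plastids. It averaged 102 ± 14.2 in mock SAM and 43.3 ± 4.35 in whole plants, and rose by 1.23 ± 0.21 (limma adjusted p = 8.35e-05). The plastid polymerase genes fell, but a rise was the more common call here, with 42.6% of all probe sets called higher. Between SAM groups the RPOTMP differences were -0.01 with L-AOPP and IAA and 0.26 with L-AOPP alone, both against mock, and -0.28 on adding IAA to L-AOPP, and none was called. Of 21 plastid RNA processing genes 2 were tested. CAF1, a splicing factor of plastid introns, was higher in mock SAM by 0.37 ± 0.14 (adjusted p = 0.0315), but by 0.19 (adjusted p = 0.272) after quantile normalization, and by 0.29 (adjusted p = 0.118) without mock SAM replicate 3, while SOT1 was called in no comparison. None of 17 polymerase-associated and nucleoid proteins had a probe set of its own in the annotation.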

How the data were processed

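Transcript signals of 12 arrays in 4 groups of 3 were deposited as 1 table of linear intensity values per probe set. The authors made these intensity values with MAS5, per the submitters' processing notes, which give no version, and the array means show that each array had been brought to a common scale. No detection calls were used here, so absence of a transcript is not stated. The number of arrays limits the precision of every value.

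Gene names came from the supplied platform annotation, which can be old: 13513 of 22746 probe sets had 1 gene, 503 several and 8730 none, and 13484 of the 13513 matched a gene table (assembly TAIR10.1) that served only for names and gene order. Of the plastid probe sets, 8 list several genes and are not named. Mitochondrial genes are not analysed here.

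From the deposited values, log2 was taken without further scaling. The 64 control probe sets were set aside and the 30% of the others that were dimmest by mean log2 (6824) were left out, leaving 15922. Linear models with 1 coefficient per group were fitted over all 12 arrays in limma 3.58.1 (lmFit, eBayes with an intensity trend; R 4.3.3), with 8 residual degrees of freedom. Tests were two-sided, p-values were adjusted over the 15922 probe sets by Benjamini-Hochberg, and a gene was called at an adjusted p below 0.05. Differences and SE are limma's, and a mean signal has the SD of its 3 arrays. The script was tested on simulated data.

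Signals are printed per array in the order of replicates 1, 2 and 3. Every gene is accounted for. Those called in a comparison between SAM groups, and the 6 with the largest difference between mock SAM and whole plants, are given with their signals on every array. Of each list of nuclear genes or markers, up to 3 called genes with the largest difference are named. The genes and lists were chosen with earlier results of these data known. Alternatives changed the normalization, the treatment of low values, the filter, the arrays in the fit, the variance model, a replicate block and a covariate for RNA quality. The 25S covariate and leaving out both replicates numbered 3 (of L-AOPP and of mock SAM) were added after seeing the data. Same-numbered arrays deviated together with correlations of -0.188 to 0.105, so the numbers were not taken to pair the arrays.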

Additional observations from a re-analysis of the deposited data

How the results depend on the processing

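With each array left out in turn, the count of called plastid genes ran from 0 to 2 for L-AOPP against mock, was 0 throughout for the IAA addition to L-AOPP, and ran from 0 to 4 for the 2 agents together against mock and from 24 to 25 for mock SAM against whole plants. Over all probe sets the same counts ran from 89 to 586, 28 to 213, 169 to 531 and 10093 to 10417, in that order of comparisons. For L-AOPP against mock, 2 plastid genes were called with the floor, the pseudocount, the 50% filter and only the 2 groups compared, and 0 with no intensity trend, array weights, either covariate or L-AOPP 3 and mock SAM 3 left out. For the IAA addition the count was 6 only with L-AOPP 3 and mock SAM 3 left out. For L-AOPP with IAA against mock it was 0 with no intensity trend and with either covariate. For mock SAM against whole plants it was 7 with the GAPDH ratio as a covariate (rpoA, rpl14, rps4, rpl32, rps19, rps3 and matK), with a ratio that did not overlap between the groups, and rpoB then turned to 1.34 (limma adjusted p = 0.591). The numbers of all probe sets called that moved were, for L-AOPP against mock (408), 122 with no trend, 47 with the GAPDH and 116 with the 25S covariate, and 75 without these 2 arrays. For the IAA addition (137) they were 85 with the 50% filter, 66 with 2 groups, 23 with no trend, 240 with array weights and 70 with the GAPDH covariate. For L-AOPP with IAA against mock (484) they were 134 with 2 groups, 175 with no trend, 7 with the GAPDH and 60 with the 25S covariate, and 135 without these 2 arrays. For mock SAM against whole plants (10760) the count was 6256 with the GAPDH covariate. Leaving out 1 array raised such counts in some cases and lowered them in others, and the cause was not tested. The replicate block kept the count for L-AOPP against mock at 1, but called rpoC1 (0.72, adjusted p = 0.0481) and not rpoC2 (0.92, adjusted p = 0.0515). In L-AOPP with IAA against mock it gave rps15 an adjusted p of 0.0553.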
